A study of Mus musculus with 26 samples.

Results

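Solute carriers are the membrane proteins that move sugars, nucleosides, vitamins, ions, metals and metabolites into cells and between their compartments. The transcripts described here are the 234 genes, of 12393 named genes on the arrays, whose symbol begins with Slc and a digit, without the amino acid carrier families Slc1, Slc3, Slc7, Slc36, Slc38 and Slc43, which hold a further 28 genes. The symbol rule was checked against the names it returned. It keeps 3 genes of accessory proteins that are not carriers (Slc4a1ap, Slc9a3r1 and Slc9a3r2), and it keeps some carriers of amino acids in other families, among them the mitochondrial ornithine carrier Slc25a15 and the glycine carrier Slc6a9. The probe set with the highest mean over all arrays stands for a gene, and 90 of the 234 genes have several probe sets.

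The cells were S49, an established mouse T-lymphoma line, as wild type (WT) and as the variant Kin-, which has no working protein kinase A, the main kinase activated by cyclic AMP. Messenger RNA was measured on 26 arrays in 8 groups. Each line was left untreated (0 h, 4 arrays) or received 100 µM 8-CPT-cAMP, a membrane-permeant cyclic AMP analog, for 2, 6 or 24 h (3 arrays each), and the only untreated arrays are those of 0 h. The labels do not name separate cultures for the arrays of a group. All p-values therefore reflect how far the arrays of a group differ, a spread that could be technical.

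Mitochondrial carriers of the Slc25 family exchange nucleotides, phosphate, metabolites and cofactors across the inner membrane, and a few sit in peroxisomes. Facilitative glucose transporters (Slc2) and equilibrative nucleoside transporters (Slc29) let their substrates run down a gradient at the cell surface, where lymphoid cells take up fuel and the bases for DNA. Zinc and iron enter the cytosol through Slc39 and Slc11 proteins, and Slc30 proteins move zinc out of it. Nucleotide sugar transporters (Slc35) supply the endoplasmic reticulum and the Golgi apparatus with activated sugars for glycans. Cyclic AMP acts on many genes through kinase A and the transcription factor CREB, which binds the palindrome TGACGTCA.

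Levels are square roots of the deposited scores, read as log2 intensities, and a change is a difference of group means in log2 units. A change passed when its adjusted p was under 0.05 (limma, Benjamini-Hochberg over all 22626 probe sets). In bulk RNA of this kind, fewer cells with a transcript and less of it per cell cannot be told apart. The array numbers in the labels form 2 sets, 1 to 14 (10 arrays) and 16 to 47 (16 arrays), and the first component of the variation left within groups, 35.5% of it, separated them. Every group holds arrays of both sets, and each carrier that passed against 0 h, between the untreated lines or in the difference of responses had the pooled sign in both sets. Of 10 T-cell marker genes 8 were measured. Cd3d (12.51), Cd3g (12.23), Thy1 (12.87) and Ptprc (11.79) stood high in untreated WT cells and Cd5 (3.19) low, while the 19 measured markers of B, myeloid, erythroid and fibroblast cells lay between 1.72 and 5.80. The T-cell markers moved as well. At 24 h Cd3d (0.78), Cd3e (1.10), Cd3g (0.86), Cd247 (0.95) and Ptprc (0.76) were higher. Ptprc was also higher at 6 h (0.66), and Thy1 and Cd2 were lower at 2 h (−0.97 and −1.64), 6 h (−1.51 and −2.09) and 24 h (−0.77 and −1.36). Cd2 stood at 7.03 in untreated WT cells and at 9.03 in untreated Kin- cells. Between the untreated lines 1 of the 8 T-cell markers was higher and 1 lower in Kin- cells. The part of these shifts in the results was not tested. Among the markers of other cells those that passed under the analog were the myeloid marker Itgam, 2.11 higher at 24 h, the B-cell marker Blnk, 1.42 higher at 24 h, and the myeloid marker Adgre1, 0.23 higher at 2 h; the summed level of the 6 myeloid markers was 23.7 to 24.3 in untreated WT arrays and 24.4 to 26.9 at 24 h, and its part in the results was not tested. Crem, a gene that cyclic AMP induces, stood at 4.14 in untreated WT cells and at 10.21 at 2 h, and at 4.16 and 4.21 in Kin- cells.

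In WT cells the analog changed a minority of the carriers, in both directions. At 2 h 31 of 234 passed (13.2%), against 15.7% of all genes; 15 were higher and 16 lower, against 7.25% and 8.44% of all genes. At 6 h 43 passed (18.4%), against 22.2% of all genes; 25 were higher and 18 lower, against 11% and 11.1%. At 24 h 53 passed (22.6%), against 32.5%; 28 were higher and 25 lower, against 16.3% each. The median change over all 234 carriers was 0.04, −0.03 and −0.01 at the 3 times, beside 0.05, −0.03 and −0.01 over all genes. Carriers whose level was below the overall median of 5.50 seldom passed: 2.24%, 2.99% and 3.73% of those 134 genes, beside 2.52%, 2.15% and 5.48% of all genes below it. Of the 100 carriers above it 28%, 39% and 48% passed, beside 26.9%, 39.3% and 55.7% of all genes above it. The share of carriers that passed was thus near the background of the arrays at 2 and 6 h and below it at 24 h. Of the 234 carriers 134 lie below the median level, where few genes passed. The difference from all genes was not tested. The counts moved with the fit. With the series of consecutive array numbers as a block the 2 h count was 50 (21.4%, against 21.6% of all genes). Array weights gave 64 at 2 h (27.4%, against 30.2%) and 84 at 24 h (35.9%, against 43.7%). Arrays 1 to 14 alone gave 3, 10 and 24 at the 3 times (1.28%, 4.27% and 10.3%, against 1.15%, 3.67% and 15.8%).

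Counted over time, 75 carriers passed at 1 or more of the 3 times and 159 at none. At all 3 times 15 passed. Higher at every time were 8 of them, Slc2a3, Slc37a3, Slc35d1, Slc26a2, Slc25a17, Slc25a36, Slc66a2 and the adaptor gene Slc9a3r1. Lower at every time were 6, Slc19a1, Slc29a1, Slc6a9, Slc25a15, Slc25a37 and Slc35c2. Slc2a9 is the remaining gene of the 15. Of the 75, 10 passed at 2 h alone, 11 at 6 h alone and 17 at 24 h alone, and 5 passed in opposite directions at different times. These patterns were not counted over all genes, of which 15.7%, 22.2% and 32.5% passed at 2, 6 and 24 h. Whether they are particular to the carriers was therefore not tested.

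**Figure D1:**
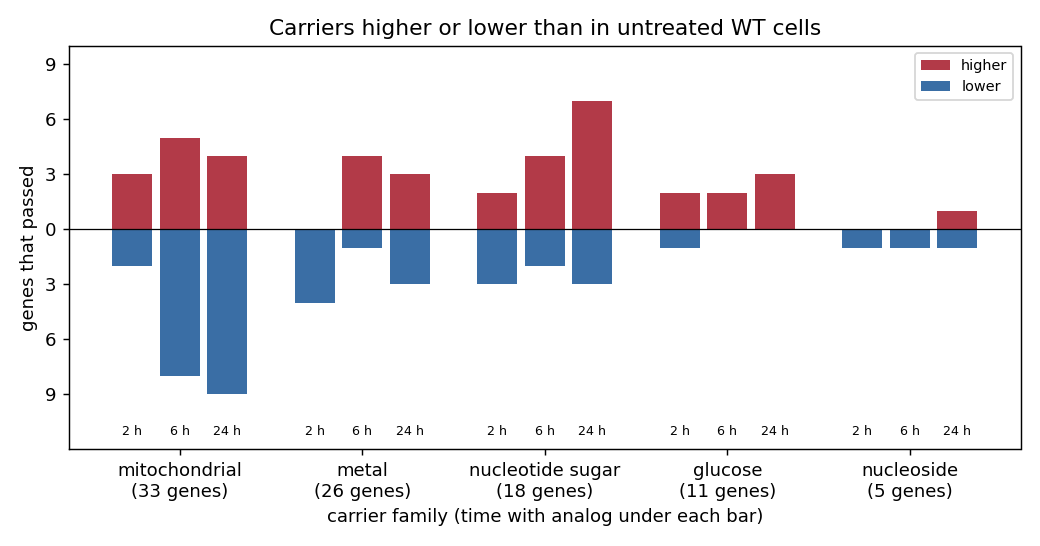
Number of carrier genes per family that were higher (upward bars) or lower (downward bars) than in untreated WT cells at 2, 6 and 24 h; the family's gene count stands under its name. Slc25 carriers and nucleotide sugar carriers each hold both higher and lower genes at each of the 3 times. The text sets these counts beside shares of the measured genes.

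Of the 11 sugar carriers (Slc2 genes, Slc50a1 and the sodium-coupled Slc5a1 and Slc5a2), 2, 2 and 3 were higher and 1, 0 and 0 lower at 2, 6 and 24 h (27.3%, 18.2% and 27.3%, against 15.7%, 22.2% and 32.5% of all genes). The transcript of Slc2a3 (GLUT3, a high-affinity glucose transporter) rose most. It read 8.92, 8.68, 8.59 and 10.09 on the 4 untreated WT arrays, 11.42, 11.96 and 11.99 at 2 h, 11.76, 12.02 and 12.17 at 6 h, and 11.61, 12.49 and 12.35 at 24 h. All treated WT arrays lay above all untreated ones, although 1 untreated array (number 36) stood well above the other 3. The rise was 2.72 ± 0.51 (SE; adjusted p = 0.000657) at 2 h, 2.91 ± 0.51 (0.000232) at 6 h and 3.08 ± 0.51 (5.23e-05) at 24 h, and no step between successive times passed. Its second brightest probe set rose by 2.74, 2.98 and 3.23.

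Slc2a1 (GLUT1), the transporter that growing lymphoid cells are known for, did not pass at any time against 0 h. Its untreated WT arrays read 10.11, 9.58, 9.68 and 11.77, the 6 h arrays 12.26, 11.02 and 11.90, and the 24 h arrays 8.75, 10.48 and 9.60. The untreated array that is high for Slc2a3 is the one high for Slc2a1 as well, and the untreated range overlaps that of every treated group. The changes were 0.35 ± 0.54 at 2 h (adjusted p = 0.716), 1.44 ± 0.54 at 6 h (0.0688) and −0.67 ± 0.54 at 24 h (0.473). The level fell by 2.12 ± 0.58 from 6 to 24 h (adjusted p = 0.0121). The dimmest of its 3 probe sets passed at 6 h (1.58, adjusted p = 0.024), and the other one did not (1.45, 0.052).

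Slc2a9 (GLUT9, known as a urate transporter) went first down and then up. Its level was 5.52 ± 0.05 (SD, n = 4) in untreated WT cells, 5.08 ± 0.28 (n = 3) at 2 h, 6.25 ± 0.18 at 6 h and 7.38 ± 0.16 at 24 h. The 4 groups do not overlap. The changes were −0.44 ± 0.14 (SE; adjusted p = 0.0319), 0.73 ± 0.14 (0.000397) and 1.86 ± 0.14 (1.04e-09), and the rise continued from 6 to 24 h by 1.13 (adjusted p = 7.49e-06). Slc2a8, an intracellular member, rose by 0.34 at 2 h, and Slc50a1, a sugar uniporter, by 0.62 at 24 h. Of 6 measured genes for the first steps of hexose use, 1, 2 and 2 were higher and 0, 0 and 1 lower at the 3 times (16.7%, 33.3% and 50%). Of the 6, 5 lie at or above the overall median level, where 26.9%, 39.3% and 55.7% of all genes passed. Hexokinase 2 (Hk2) rose by 1.17 at 2 h and 1.23 at 6 h, Hk1 by 0.68 and 0.60 at 6 and 24 h, and Txnip, an inhibitor of glucose uptake, rose by 2.63 at 24 h, when the phosphofructokinase gene Pfkp fell by 0.71. On the 4 untreated arrays Hk2 read 9.26, 9.07, 9.02 and 10.27, so the array that is high for both glucose transporters is high here too; what sets it apart was not tested.

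**Figure D2:**
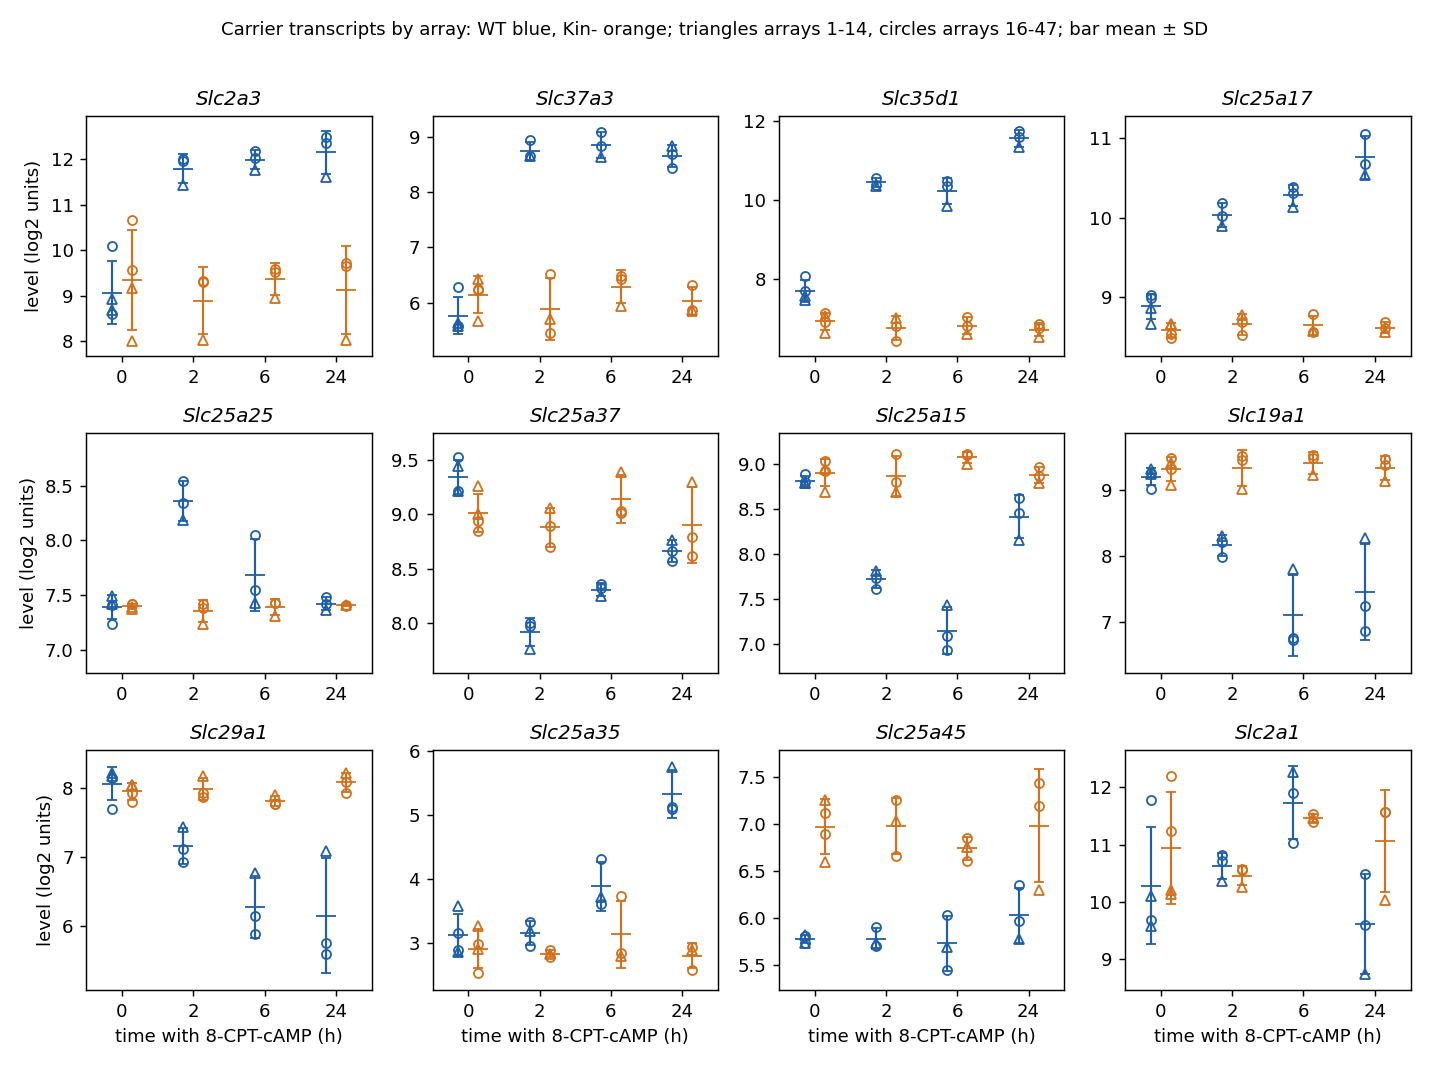
Level in log2 units (vertical axis, a scale of its own for each gene) of 12 carrier transcripts on each array against time with the analog in hours (not to scale), WT in blue and Kin- in orange; triangles are arrays 1 to 14, circles arrays 16 to 47, and bars give the mean ± SD. Blue points leave the untreated range in most panels while orange points stay within theirs or close to it; Slc25a45 differs between the lines at 0 h.

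Sugar phosphate and nucleotide sugar carriers of intracellular membranes held the other very large rises. Slc37a3, of the sugar phosphate exchanger family, read 5.63, 5.58, 6.29 and 5.59 untreated. It read 8.65, 8.65 and 8.94 at 2 h, 8.64, 9.09 and 8.83 at 6 h, and 8.83, 8.44 and 8.69 at 24 h. On this brightest probe set the treated arrays form 1 high plateau far from the untreated ones. The changes were 2.97 ± 0.23 (SE; adjusted p = 1.2e-08), 3.08 ± 0.23 (6.83e-09) and 2.88 ± 0.23 (4.54e-09). The dimmer probe set of Slc37a3, at a mean level of 5.42, rose by 2.05, 2.71 and 3.54 at the 3 times. Relatives of Slc37a3 moved the other way at 2 h: Slc37a4, the glucose 6-phosphate carrier of the endoplasmic reticulum, fell by 0.92 and Slc37a1 fell by 0.77. The call on Slc37a4 is lost without array 1, 17, 36 or 37 (adjusted p = 0.0607, 0.104, 0.0717 and 0.131).

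Slc35d1, which carries UDP-glucuronic acid and UDP-N-acetylgalactosamine into the endoplasmic reticulum, had the largest change of all carriers at 24 h. Untreated WT arrays read 7.57, 7.47, 8.08 and 7.69, the 2 h arrays 10.36, 10.56 and 10.38, the 6 h arrays 9.85, 10.48 and 10.36, and the 24 h arrays 11.33, 11.75 and 11.58. No treated array came near an untreated one, and the 24 h arrays lie above all others. The rise was 2.73 ± 0.17 at 2 h (adjusted p = 6.13e-10), 2.53 ± 0.17 at 6 h (1.85e-09) and 3.85 ± 0.17 at 24 h (1.06e-12).

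Of the 18 nucleotide sugar carriers, 2 were higher and 3 lower at 2 h, 4 and 2 at 6 h, and 7 and 3 at 24 h. These are 27.8%, 33.3% and 55.6%, and 14 of the 18 lie at or above the overall median level, where 26.9%, 39.3% and 55.7% of all genes passed. Here too the family's shares include its dimmer genes and are not matched to that level. The median changes were 0.03, −0.01 and −0.01. Slc35b4, a carrier of UDP-xylose and UDP-N-acetylglucosamine, rose by 0.70 at 6 h and 1.66 at 24 h, and Slc35a2, the UDP-galactose carrier, by 0.68 and 0.76. The dimmer probe sets of Slc35a2 did not pass at 24 h (0.34, 0.17 and 0.14). At 6 h the one with a mean level of 6.28 passed (0.56), and the others did not (0.47 and 0.25). Slc35b3, a carrier of the sulfate donor PAPS, rose by 0.77 at 24 h, whereas Slc35b2, the other PAPS carrier, fell by 0.51 at 2 h and fell by 0.47 at 6 h. Slc35a1, the CMP-sialic acid carrier, changed sign: its level was 7.07 ± 0.28 (SD, n = 4) untreated, 6.10 ± 0.35 (n = 3) at 2 h, 7.08 ± 0.14 at 6 h and 7.74 ± 0.15 at 24 h, with changes of −0.98 (adjusted p = 5.94e-05), 0.01 and 0.67 (0.00104). Slc35e1 did the reverse, 0.47 at 2 h and −0.55 at 24 h, and Slc35a4 fell from 10.02 to 9.02 at 24 h (adjusted p = 0.00209). Slc35c2 fell at all 3 times (−0.68, −0.69 and −0.45). Its second probe set, at a mean level of 3.16 beside 7.28, read 0.07 at 2 h. Slc26a2, the sulfate transporter, rose by 1.26 ± 0.21, 1.23 ± 0.21 and 1.68 ± 0.21 at the 3 times. The second, dimmer probe set of Slc26a2 did not pass (0.39, 0.31 and 0.34).

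The 33 Slc25 genes had 3 higher and 2 lower at 2 h (15.2% passed), 5 higher and 8 lower at 6 h (39.4%) and 4 higher and 9 lower at 24 h (39.4%), with median changes of −0.03, −0.05 and −0.10. Of the 33 genes 26 lie at or above the overall median level, where 26.9%, 39.3% and 55.7% of all genes passed. The family's own shares include its dimmer genes, so they are not matched to that level. The family was not tested against other genes. The most abundant inner-membrane carriers moved little on their brightest probe sets. The ADP/ATP carriers Slc25a5 and Slc25a4 stood at 14.17 and 13.36 in untreated WT cells and differed by −0.18 (adjusted p = 0.0203) and 0.21 (0.0504) at 24 h. Dimmer probe sets of Slc25a5 read between −0.59 and −0.15 at 24 h. Among those that passed were −0.59 and −0.50, at mean levels of 12.64 and 10.24. The phosphate carrier Slc25a3 rose by 0.34 at 6 h and was at 0.01 at 24 h.

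**Figure D3:**
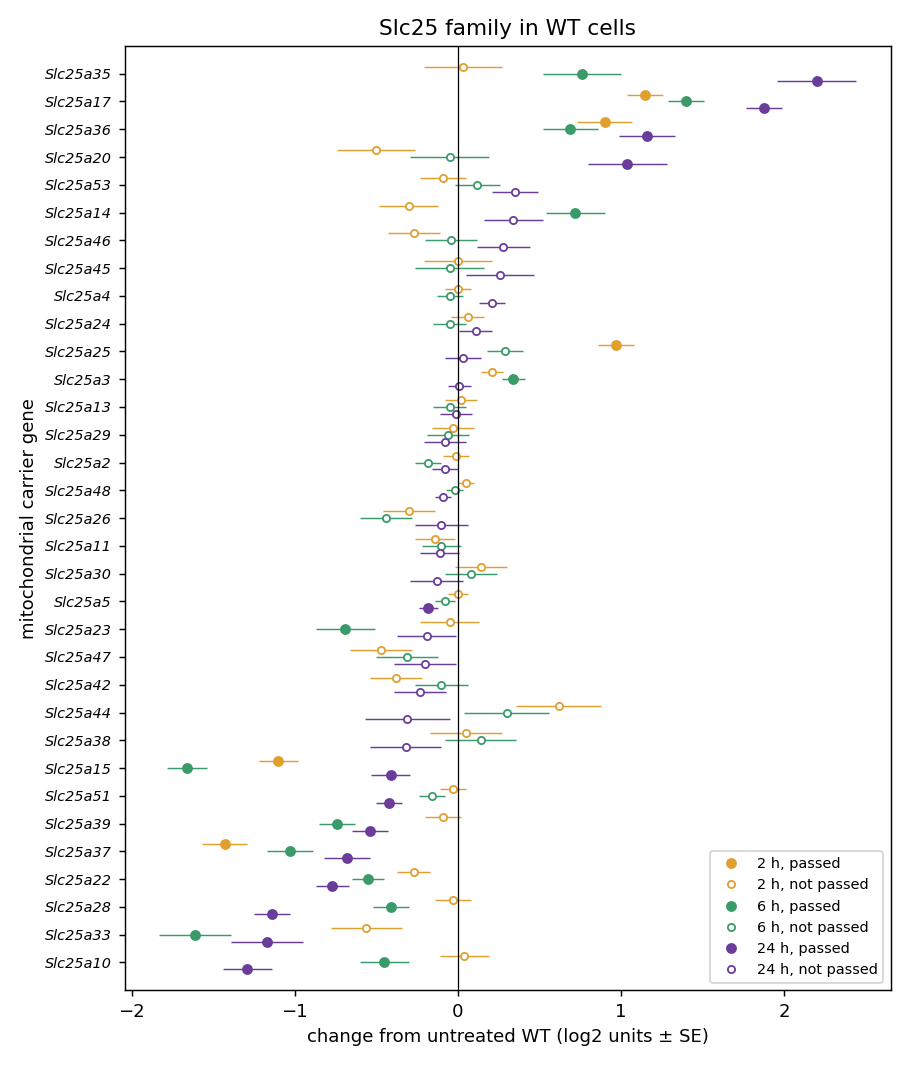
Change from untreated WT cells in log2 units (horizontal axis, ± SE) of each of the 33 Slc25 genes at 2 h (orange), 6 h (green) and 24 h (purple), ordered by the 24 h change; filled symbols passed. Slc25a35, Slc25a17, Slc25a36 and Slc25a20 lie at the top with 24 h changes from 1.04 to 2.20, and Slc25a10, Slc25a33 and Slc25a28 at the bottom with −1.29, −1.17 and −1.14.

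Slc25a17, a carrier of peroxisomes that moves coenzyme A, FAD and NAD, rose stepwise. It read 8.86, 8.66, 8.99 and 9.02 untreated, 9.89, 10.02 and 10.19 at 2 h, 10.14, 10.31 and 10.39 at 6 h, and 10.54, 10.68 and 11.06 at 24 h. The treated arrays are all above the untreated ones and the 24 h arrays above those of 2 and 6 h. The changes were 1.15 ± 0.11 (SE; adjusted p = 2.45e-07), 1.40 ± 0.11 (1.29e-08) and 1.88 ± 0.11 (6.82e-11). Its other probe set, at a mean level of 1.95, read 0.05, −0.03 and 0.08.

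Slc25a25, a calcium-dependent carrier that exchanges ATP-Mg for phosphate, responded at 2 h only. It read 7.42, 7.49, 7.41 and 7.23 untreated, 8.19, 8.34 and 8.54 at 2 h, 7.43, 8.05 and 7.55 at 6 h, and 7.36, 7.48 and 7.42 at 24 h. All 2 h arrays are above every other WT array, and the 24 h arrays are back among the untreated ones. The 2 h change was 0.97 ± 0.11 (adjusted p = 1.14e-06), followed by a fall of 0.68 from 2 to 6 h (adjusted p = 0.000351).

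The pyrimidine nucleotide carriers Slc25a36 and Slc25a33, which bring building blocks for mitochondrial DNA and RNA into the matrix, moved in opposite directions. Slc25a36 rose by 0.90 ± 0.17, 0.69 ± 0.17 and 1.16 ± 0.17 at the 3 times (adjusted p = 0.000599, 0.0043 and 1.01e-05), and its second probe set by 2.07, 0.96 and 1.14. Slc25a33 read 8.71, 8.80, 8.28 and 8.44 untreated, 8.37, 7.97 and 7.66 at 2 h, 7.45, 6.64 and 6.76 at 6 h, and 8.01, 6.91 and 7.23 at 24 h. Every 6 h and 24 h array lies below the untreated ones, while the 2 h arrays overlap them. The changes were −0.56 ± 0.22 at 2 h (not passed), −1.61 ± 0.22 at 6 h (1.26e-05) and −1.17 ± 0.22 at 24 h (0.000184).

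Slc25a25 and Slc25a36 were also the only carriers with TGACGTCA near a start site, among the 188 of 234 matched to RefSeq promoter windows (GRCm38.p6; 250 bases before to 50 after the start site). The motif was searched as TGACGTCA, which reads the same on both strands. It stood in 588 of 32851 windows of all genes (1.79%), and by gene in 549 of 27025 (2.03%) against 2 of 188 carriers (1.06%). Both carriers belong to the 10 matched genes that rose at 2 h, and none of the 14 matched genes that fell or of the 164 others held it. A match describes letters in a window and is no evidence of binding. The 250 bases before the start site are given 5′ to 3′ with the motif in capitals. For Slc25a25 it is chr2:32424067-32424316, minus strand, with the motif beginning 150 bases before the start, in 1 of the gene's 3 windows. For Slc25a36 it is chr9:97111042-97111291, minus strand, with the motif 161 bases before the start.
Slc25a25: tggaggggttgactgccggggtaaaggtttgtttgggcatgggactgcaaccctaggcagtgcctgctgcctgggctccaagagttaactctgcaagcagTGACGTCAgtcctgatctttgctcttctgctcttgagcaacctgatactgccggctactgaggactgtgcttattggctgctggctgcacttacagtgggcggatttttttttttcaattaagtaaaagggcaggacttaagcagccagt
Slc25a36: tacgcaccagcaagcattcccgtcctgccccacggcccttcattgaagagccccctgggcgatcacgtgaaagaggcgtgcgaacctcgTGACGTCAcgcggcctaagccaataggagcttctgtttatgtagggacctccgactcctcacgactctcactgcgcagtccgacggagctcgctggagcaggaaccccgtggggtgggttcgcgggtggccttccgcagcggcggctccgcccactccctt

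The mitoferrins, which carry iron into mitochondria for heme and iron-sulfur clusters, both fell, at different times. Slc25a37 (mitoferrin 1) read 9.21, 9.44, 9.52 and 9.21 untreated, 7.77, 7.98 and 8.00 at 2 h, 8.25, 8.32 and 8.36 at 6 h, and 8.76, 8.66 and 8.57 at 24 h. The 4 WT groups do not overlap, with the 2 h arrays lowest and the 24 h arrays nearest to the untreated ones. The changes were −1.43 ± 0.14 (SE; adjusted p = 2.51e-07), −1.03 ± 0.14 (1.15e-05) and −0.68 ± 0.14 (0.000511). Slc25a28 (mitoferrin 2) was at −0.03 at 2 h, −0.41 ± 0.11 at 6 h (adjusted p = 0.00991) and −1.14 ± 0.11 at 24 h (6.28e-08). Slc25a39, the carrier that brings glutathione into mitochondria, fell at 6 h (−0.74) and 24 h (−0.54).

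Slc25a15, the mitochondrial ornithine carrier, read 8.79, 8.78, 8.89 and 8.80 untreated, 7.81, 7.73 and 7.61 at 2 h, 7.43, 7.09 and 6.93 at 6 h, and 8.15, 8.45 and 8.62 at 24 h. Its fall was deepest at 6 h, and the 24 h arrays came back to just below the untreated ones. The changes were −1.10 ± 0.12 (SE; adjusted p = 1.16e-06), −1.66 ± 0.12 (3.17e-09) and −0.41 ± 0.12 (0.0116), and the step of 1.26 from 6 to 24 h passed (adjusted p = 4.24e-07). Its dimmer probe set read −0.18, −0.28 and −0.21 and did not pass.

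Other Slc25 genes moved late. Slc25a35, a carrier of unsettled substrate, read 3.57, 2.85, 3.16 and 2.89 untreated and 5.75, 5.09 and 5.12 at 24 h, a rise of 2.20 ± 0.24 (SE; adjusted p = 2.01e-07) with no overlap. Its 6 h rise of 0.76 is lost without array 13, 18 or 36 (adjusted p = 0.0798, 0.196 and 0.0714). Slc25a20, the acylcarnitine carrier of fatty acid oxidation, rose by 1.04 at 24 h and by 1.10 from 6 to 24 h. The dicarboxylate carrier Slc25a10 fell at 6 h (−0.45) and 24 h (−1.29), and so did the glutamate carrier Slc25a22 (−0.55 and −0.77). Slc25a14 rose by 0.72 and Slc25a23, another ATP-Mg carrier, fell by 0.69, both at 6 h only. For the NAD carrier Slc25a51 the probe sets opposed each other at 24 h (−0.42, 0.47 and 1.23, each passed), so its direction is uncertain.

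Genes that import these carriers were lower where they passed. Of 10 measured translocase genes that bring carrier proteins through the outer membrane and into the inner one, 3, 7 and 8 were lower at the 3 times and none higher, with 8.44%, 11.1% and 16.3% of all genes lower. Their median changes were −0.29, −0.64 and −0.69, beside 0.05, −0.03 and −0.01 over all genes. All 10 lie at or above the overall median level, where a larger share of genes passed at each time, as given above. The shares over all genes are therefore not matched to their levels, and the list was not tested against other genes. Timm8b (0.22 at 24 h, adjusted p = 0.0756) and Tomm20 (−0.05) did not pass at 24 h. Timm9, a chaperone of the intermembrane space, changed by −1.04, −1.67 and −1.72, Timm8a1 by −0.95, −1.65 and −1.96, and the import pore gene Tomm40 by −1.29 at 6 h and −1.69 at 24 h. Among the 3 outer membrane pore genes, Vdac1 (−0.40 and −0.58) and Vdac2 (−0.31 and −0.39) fell at 6 and 24 h, and Vdac3 (−0.17 at 24 h) did not pass.

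The deepest falls among the carriers at 6 and 24 h were those of the folate carrier Slc19a1 and the nucleoside carrier Slc29a1. Of 5 nucleoside carriers, Slc29a1 (ENT1, the equilibrative nucleoside transporter of the cell surface) fell at all 3 times. It read 8.17, 8.22, 8.14 and 7.70 untreated, 7.44, 7.12 and 6.93 at 2 h, 6.77, 6.15 and 5.88 at 6 h, and 7.09, 5.59 and 5.76 at 24 h. All treated WT arrays lie below the untreated ones, and array 4, in the lower-numbered set, lies well above the other 2 of 24 h. The changes were −0.90 ± 0.26 (SE; adjusted p = 0.0201), −1.79 ± 0.26 (2.32e-05) and −1.91 ± 0.26 (3.78e-06), and the 2 h call is lost without array 13, 17 or 37 (adjusted p = 0.0549, 0.0657 and 0.109). Slc29a3, a lysosomal nucleoside carrier, rose by 0.82 at 24 h, and the sodium-coupled Slc28a3 stayed at 4.22 to 4.50 on average over the WT groups, with no call.

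Of 13 genes of nucleoside and base salvage, 1, 2 and 3 were higher and 0, 5 and 6 lower at the 3 times, beside 7.25%, 11% and 16.3% of all genes higher and 8.44%, 11.1% and 16.3% lower. Their median changes were −0.10, −0.16 and −0.34. As 11 of the 13 lie at or above the overall median level, where genes passed more often, the shares over all genes are not matched to them. At 24 h the changes were −2.66 for thymidine kinase 1 (Tk1), −1.51 and −1.25 for the purine salvage genes Hprt and Aprt, −1.56 for adenosine deaminase (Ada) and −1.45 for Uck2. The mitochondrial kinases Tk2 and Dguok rose by 1.13 and 0.88, and adenosine kinase (Adk) by 1.04.

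Slc19a1, the reduced folate carrier, read 9.32, 9.25, 9.02 and 9.27 untreated, 8.31, 8.21 and 7.99 at 2 h, 7.81, 6.75 and 6.73 at 6 h, and 8.28, 6.87 and 7.24 at 24 h. No treated array reached the untreated range, and arrays 3 and 4 were the highest of their groups. The changes were −1.04 ± 0.26 (SE; adjusted p = 0.0077), −2.12 ± 0.26 (3.65e-06) and −1.75 ± 0.26 (1.37e-05). Its second probe set fell as well (−1.47, −2.46 and −2.07), and the remaining dim one did not pass. Slc19a2, a thiamine carrier, fell at 6 h (−0.79) and 24 h (−1.73). The 6 h call is lost without array 18 or 38 (limma, adjusted p = 0.0573 and 0.0538). The second probe set of Slc19a2, at a mean level of 3.62, did not pass (−0.22 and −0.09). The glycine carrier Slc6a9 fell at the 3 times (−0.94, −1.53 and −1.34), with the 2 h call lost without array 2, 36 or 37 (adjusted p = 0.0843, 0.0742 and 0.0558).

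Of the 26 metal carriers none was higher and 4 lower at 2 h, 4 higher and 1 lower at 6 h, and 3 and 3 at 24 h, all by less than 1 log2 unit. These are 15.4%, 19.2% and 23.1%, against 15.7%, 22.2% and 32.5% of all genes. The zinc carrier Slc39a11 dipped once: it read 8.07, 8.07, 8.40 and 8.34 untreated, 7.28, 7.47 and 7.06 at 6 h, and 8.07, 8.26 and 8.41 at 24 h. The 6 h arrays are apart from all others. The level fell by 0.95 at 6 h (adjusted p = 1.99e-06) and the return of 0.98 by 24 h passed as well (3.87e-06). The magnesium carrier Slc41a1 fell by 0.44 at 2 h and stood 0.77 above the untreated level at 24 h. Slc39a1, a zinc importer of the cell surface, rose by 0.53 and 0.52 at 6 and 24 h, and Slc39a7, which releases zinc from the endoplasmic reticulum, by 0.30 at 6 h. Slc30a7 rose by 0.42 and the copper carrier Slc31a2 by 0.59, both at 6 h. Slc11a2 (DMT1, the iron carrier of endosomes) rose by 0.54 at 24 h, when Slc39a3 (−0.81), Slc39a14 (−0.43) and Slc30a5 (−0.41) were lower. At 2 h Slc11a2 did not pass (−0.23), but its second probe set fell by 0.84 (limma, adjusted p = 6.46e-05) and then stood 0.99 higher at 24 h. The second probe set of Slc39a3 did not pass at 24 h (−0.26) and was higher at 2 h (0.50, adjusted p = 0.0191). The copper carrier Slc31a1 is counted as not passed (0.45, 0.36 and −0.05), while its second probe set, at a mean level of 7.68 beside 7.83, was higher at the 3 times (0.87, 0.75 and 0.36, adjusted p = 6.14e-05, 0.000228 and 0.0421). Of 12 other genes of metal handling, the transferrin receptor gene Tfrc fell at 6 h (−0.83) and 24 h (−1.37), Fth1 rose by 0.39 and Steap3 by 0.78 at 24 h, and Mtf1 fell by 0.39.

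Carriers of other solutes moved singly. Slc16a1 (MCT1, the lactate carrier) was at 12.38 ± 0.26 (SD, n = 4) untreated, 11.82 ± 0.37 (n = 3) at 6 h and 11.31 ± 0.02 at 24 h, changes of −0.56 (adjusted p = 0.0185) and −1.07 (2.43e-05). Its close relative Slc16a3 (MCT4) rose by 0.35 at 2 h. Emb (embigin), a partner that brings such carriers to the membrane, rose by 1.02, 1.53 and 2.93 at the 3 times. It is 1 of 4 listed partner and lactate enzyme genes. From untreated to 24 h WT cells the mean of Bsg (basigin) went from 11.54 to 11.24. That of Ldha went from 13.74 ± 0.06 (SD, n = 4) to 14.11 ± 0.09 (n = 3) at 6 h and 14.12 ± 0.23 (n = 3) at 24 h. That of Ldhb went from 11.30 to 11.16 at 24 h. The potassium-chloride carrier Slc12a7 rose by 0.75 at 6 h and 1.38 at 24 h, and the fatty acid carrier Slc27a4 by 1.05 and 0.82. Slc8b1, the sodium-calcium exchanger of mitochondria, rose by 1.05 at 24 h, and the heme carrier Slc48a1 by 0.39 and 0.84 at 6 and 24 h. Slc44a2, a choline carrier-like protein, fell by 0.94 at 2 h, a call lost without array 2, 16, 17 or 36 (adjusted p = 0.166, 0.121, 0.0746 and 0.114), and was 0.89 higher at 24 h. Slc66a2 rose by 0.68, 0.34 and 0.49 at the 3 times, and Slc10a3 by 0.57 at 2 h. Slc20a2, a phosphate carrier, fell at 6 and 24 h (−0.73 and −0.79). The dimmer probe set of Slc20a2, at a mean level of 5.33, did not pass (−0.22 and −0.07). Slc5a9 fell by 0.84 at 6 h (without array 18 adjusted p = 0.0642) at a level of 3.79 untreated.

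In Kin- cells no carrier passed at 2, 6 or 24 h, where 0% of all genes passed at each time (limma). At an unadjusted p under 0.05 there were 6, 3 and 5 of the 234, and the smallest adjusted p was 1. Carriers that passed in WT cells changed in Kin- cells by a median size of 0.08, 0.09 and 0.08, beside 0.77, 0.70 and 0.80 in WT cells. The widest of these Kin- differences were −0.46 for Slc2a3 at 2 h and −0.48 for Slc8b1 at 24 h. Slc2a3 read 8.01, 9.17, 9.57 and 10.67 on untreated Kin- arrays and 8.04, 9.31 and 9.32 at 2 h, so its Kin- arrays spread widely at 0 h. Slc35d1 read 7.06, 6.65, 7.14 and 6.92 untreated and 6.55, 6.78 and 6.86 at 24 h, a range that stayed below that of every WT array.

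**Figure D4:**
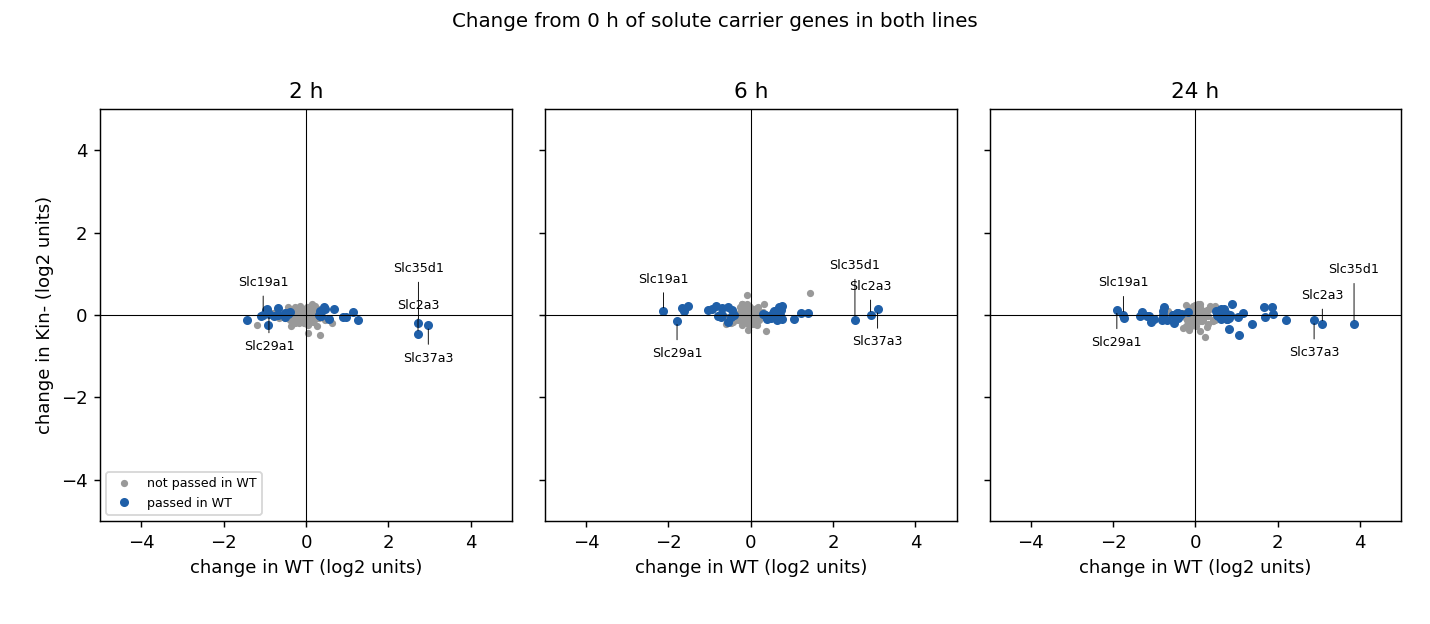
Change from 0 h of the 234 carrier genes in Kin- cells (vertical axis, log2 units) against WT cells (horizontal axis, log2 units) at 2, 6 and 24 h; blue points passed in WT cells. Points spread from −2.12 to 3.85 along the WT axis and between −0.53 and 0.53 along the Kin- axis.

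The difference between the WT and the Kin- response was tested directly. It passed for 14 carriers at 2 h (5.98%, against 7.71% of all genes), 27 at 6 h (11.5%, against 12.4%) and 42 at 24 h (17.9%, against 23.8%). The WT response was the more positive for 9, 15 and 24 of them, against 3.7%, 5.91% and 11.7% of all genes. It was the more negative for 5, 12 and 18, against 4.02%, 6.54% and 12%. With the consecutive-number block the 2 h count was 25 (10.7%, against 12.5% of all genes), and with a term for the array set 24 (10.3%, against 13.1%). Array weights gave 31, 44 and 65 at the 3 times (13.2%, 18.8% and 27.8%, against 15.8%, 22.3% and 32.6%). Arrays 1 to 14 alone gave 0, 0 and 6 (0%, 0% and 2.56%, against 0.00807%, 0.00807% and 3.53%). The widest differences at 24 h were 4.06 ± 0.25 (SE) for Slc35d1 (adjusted p = 4.34e-10), 3.31 ± 0.72 for Slc2a3 (0.00164), 3.00 ± 0.33 for Slc37a3 (1.05e-06), 2.32 ± 0.33 for Slc25a35 (2.31e-05) and −2.04 ± 0.36 for Slc29a1 (0.00022). Slc25a25 at 2 h (1.02, adjusted p = 0.000121), Slc25a37 at 2 h (−1.30, 0.000179), Slc25a15 at 6 h (−1.84, 4.75e-07) and Slc39a11 at 6 h (−1.10, 6.96e-05) passed too.

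Untreated Kin- cells differed from untreated WT cells in 4 carriers (1.71%, against 3.48% of all genes). Slc25a45, of the mitochondrial family, read 5.74, 5.82, 5.81 and 5.74 in WT and 6.60, 7.25, 6.89 and 7.12 in Kin- cells. The lines do not overlap, and Kin- was higher by 1.19 ± 0.20 (SE; adjusted p = 0.00102), the 1 carrier so changed, where 1.74% of all genes were higher. Lower in Kin-, against 1.73% of all genes, were Slc35d1 (−0.76, adjusted p = 0.00918), Slc12a7 (−0.55, 0.0162) and Slc66a2 (−0.42, 0.0218). The dimmer probe set of Slc12a7 did not pass (−0.05). Nor did that of Slc66a2 at a mean level of 7.01 (−0.25, limma, adjusted p = 0.724). Slc25a5 is counted as not passed (−0.18, limma, adjusted p = 0.0694). Its probe sets at mean levels of 13.86 and 13.35 were lower in Kin- cells (−0.21 and −0.26, adjusted p = 0.0268 and 0.0126). Its remaining probe sets did not pass. The calls on Slc12a7 and Slc66a2 are each lost when 1 of 4 arrays is left out: 13, 16, 40 or 44 for Slc12a7 (adjusted p from 0.0534 to 0.0703), 1, 13, 40 or 44 for Slc66a2 (from 0.0667 to 0.0821). Without untreated Kin- array 40 the count is 2. It is 10 with a term for the array set (4.27%, against 6.78% of all genes) and 15 with array weights (6.41%, against 8.16%). On arrays 16 to 47 alone it is 11 (4.7%, against 6.01%) and on arrays 1 to 14 alone 0 (0%, against 0%).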

How the data were processed

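Groups, times and array numbers come from the labels. The authors deposited 1 table of processed scores; how these scores were made, and on what scale, is not given in the sources used here. They run from 0.375 to 267, and their square root (0.612 to 16.4) was taken as a log2 intensity, an assumption, so 1 unit may not be an exact doubling. The authors' normalization was kept. Of 22626 probe sets 20380 have 1 gene symbol in the platform annotation, 691 several (not used) and 1555 none; the one with the highest mean over all arrays stands for a gene.

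limma 3.58.1 (lmFit, eBayes; R 4.3.3) fitted 8 group means with 1 shared spread, without covariates, and was tested on simulated data. The median SE of a treated against an untreated group was 0.119, and the number of arrays limits precision. The members, lists and tests were chosen with earlier results of these data known. Named genes are the 10 largest rises and falls per WT time, large changes in the mitochondrial, glucose, nucleoside and metal families, their 3 brightest genes, and the widest differences between lines; others were chosen after their values were seen.

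Consecutive array numbers form series of 0, 2, 6 and 24 h (36 same-series pairs of arrays, all with deviations correlated above 0.1, from 0.23 to 0.697); the pairing comes from these deviations, not from the labels. They entered as a random block (correlation 0.305) among the alternatives, beside other scales, quantile normalization, array sets, array weights, a filter on dim probe sets, the second brightest probe set and leaving out each array.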

Additional observations from a re-analysis of the deposited data

Results flagged for a closer look

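The responses of the lines to the analog differed, by a direct test, for 14 carriers at 2 h, 27 at 6 h and 42 at 24 h. Of all genes 7.71%, 12.4% and 23.8% passed the same test. At 2 h the widest differences (WT minus Kin-) were 3.23 for Slc37a3, 3.19 for Slc2a3, 2.92 for Slc35d1, 1.39 for Slc26a2 and −1.30 for Slc25a37. At 6 h they were 2.94 for Slc37a3, 2.91 for Slc2a3, 2.63 for Slc35d1, −2.21 for Slc19a1 and −1.84 for Slc25a15. At 24 h they were 4.06 for Slc35d1, 3.31 for Slc2a3, 3.00 for Slc37a3, 2.32 for Slc25a35 and −2.04 for Slc29a1.

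In 8 of 96 combinations of a named gene and an untreated group, the gap between 1 array and the nearest of the other 3, divided by the range of the group, was above Dixon's critical value for a group of 4, where chance gives about 1 in 20. In WT these were Slc37a3 (6.29) and Slc25a15 (8.89) on array 16, Slc28a3 (4.62) and Slc35c2 (7.79) on array 1, and Slc29a1 (7.70) and Slc2a9 (5.60) on array 36. In Kin- they were Slc25a4 (13.36) on array 14 and Slc35a1 (7.22) on array 5. The gaps themselves ran from 0.09 for Slc25a15 to 0.66 for Slc37a3. On array 36 Slc2a3 and Slc2a1 had wider gaps (1.17 and 1.65), but their ratios of 0.78 and 0.76 were below that value.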

How the results depend on the processing

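Of 80 changes of named carriers under 36 alternative settings, 2738 values kept their direction and their side of the threshold. Another 105 kept only the direction, and 2 reversed. Both reversals came with the second brightest probe set: Slc35c2 at 2 h (0.07, mean level 3.16) and Slc25a17 at 6 h (−0.03, mean level 1.95). Arrays 1 to 14 alone, with fewer arrays, lost 55 calls. The counts for WT at 2, 6 and 24 h were 3, 10 and 24 (1.28%, 4.27% and 10.3%, against 1.15%, 3.67% and 15.8% of all genes). The count was 0 for the untreated lines, where 0% of all genes passed. For the differences of responses the counts were 0, 0 and 6 (0%, 0% and 2.56%, against 0.00807%, 0.00807% and 3.53%). Array weights gave 64 at 2 h and 84 at 24 h in WT (27.4% and 35.9%, against 30.2% and 43.7% of all genes). They gave 15 for the untreated lines (6.41%, against 8.16%). For the differences they gave 31, 44 and 65 (13.2%, 18.8% and 27.8%, against 15.8%, 22.3% and 32.6%). A term for the array set gave 10 for the untreated lines (4.27%, against 6.78% of all genes) and 24 for the difference at 2 h (10.3%, against 13.1%). Arrays 16 to 47 alone gave 11 (4.7%, against 6.01%) and 23 (9.83%, against 11.5%) for the same comparisons. The consecutive-number block gave 50 at 2 h in WT (21.4%, against 21.6% of all genes) and 25 for the difference at 2 h (10.7%, against 12.5%). It changed no call among the 80 changes of named carriers. The cause of these shifts was not tested. Without 1 array the counts ran from 24 to 39, 35 to 45 and 46 to 59 in WT, and from 12 to 17, 19 to 28 and 33 to 43 for the differences. For the untreated lines they ran from 2 to 6, with 2 without Kin- array 40. The share of all genes was not counted for the fits without 1 array. Kin- counts were 0 under all settings run. Carriers below the overall median of 5.50 passed less often, at 2.24%, 2.99% and 3.73%.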

Other observations

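Metallothioneins, which bind zinc, were uneven between the untreated lines. Mt2 read 6.66, 6.51, 6.44 and 6.71 on untreated WT arrays and 7.10, 12.75, 9.48 and 9.20 on untreated Kin- arrays, a difference of 3.05 that missed the threshold (limma, adjusted p = 0.0516). Mt1 read 9.66 on Kin- array 14 and between 4.86 and 5.37 on the other untreated arrays. No metal carrier passed in this comparison.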
